A study of Mus musculus with 6 samples.

Results

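The genes described here build the receiving side of the neuromuscular junction in muscle. They are the 5 subunit genes of the muscle acetylcholine receptor (Chrna1, Chrnb1, Chrnd, Chrng and Chrne) and 5 genes that cluster the receptor (Agrn, Lrp4, Musk, Dok7 and Rapsn). They were chosen by gene symbol, and each of the 10 matched 1 of 52740 gene rows. RNA came from C2C12 cells, a line of mouse myoblasts that can fuse into myotubes. In siCOX7A2L the cells received an siRNA against Cox7a2l, whose protein helps to assemble supercomplexes of the mitochondrial respiratory chain, and in siCTRL they received a control siRNA. Both groups were grown in medium with 10% fetal bovine serum and held 3 libraries each, numbered 1 to 3. The sources used here give no siRNA sequence and no time of harvest, and C2C12 is 1 line without nerve. Whether the libraries of a group came from separate cultures is not stated, so the p-values here cover the spread of these libraries alone, and that spread may be technical.

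At a motor nerve ending, agrin released into the cleft binds Lrp4 on the muscle cell. Lrp4 then activates the receptor tyrosine kinase MuSK, with Dok7 as the adaptor inside the cell, and rapsyn ties the clustered acetylcholine receptors to the cytoskeleton. The receptor of embryonic muscle is a pentamer of α, β, δ and γ subunits, and in adult muscle ε replaces γ. Myogenic factors such as Myod1 and Myog bind E-boxes in the promoters of the subunit genes, so the genes are switched on as myoblasts differentiate.

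Libraries 1, 2 and 3 held 15095348, 14129822 and 9890218 estimated counts in siCOX7A2L, and 14896035, 14310241 and 17077826 in siCTRL. Pair 3 thus sets the shallowest library (siCOX7A2L) against the deepest (siCTRL). In that pair 1 gene row without a symbol took 11.1% of counts in siCOX7A2L and 5.81% in siCTRL. The part of these differences in the values of pair 3 was not tested. Cox7a2l itself had 6.72, 5.90 and 3.59 CPM (counts scaled to library depth with TMM factors) in siCOX7A2L libraries 1, 2 and 3, against 58.0, 59.5 and 58.9 CPM in siCTRL libraries 1, 2 and 3. Replicate 3 of both groups stood apart, with more message of differentiation genes. The transcription factor Myog had 9.57, 1.33 and 159 CPM in siCOX7A2L libraries 1, 2 and 3, against 2.90, 3.78 and 61.1 CPM in siCTRL libraries 1, 2 and 3. Summed over 10 markers of early differentiation, of which 9 were high enough to test, the level ran from 11.9 to 459 CPM in siCOX7A2L and from 13.1 to 173 CPM in siCTRL. All 6 myoblast markers were present in each library (Myod1 at 118 to 161 CPM in siCOX7A2L and 127 to 134 CPM in siCTRL). Markers that define motor neurons were absent, with Chat and Slc18a3 at 0 in all 6 libraries, and so were Sox10 and S100b of Schwann cells. Fibroblast markers (5 genes) summed to 224 to 839 CPM in siCOX7A2L and 291 to 775 CPM in siCTRL, and most of each sum was Col1a1. Col1a1 and Dcn were highest in replicate 3 of both groups, while Pdgfra and Thy1 were lowest there.

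After Cox7a2l siRNA the message of Lrp4, the receptor for agrin, rose to 1.66 times the control level, and it was the single member that passed the test. Fold changes come from edgeR's quasi-likelihood test with a block for the replicate number, so that each comparison is made within a number, and p-values were adjusted over all 15022 genes tested at a threshold of 0.05. Of the 10 members 9 had enough counts to be tested, 1 rose and 0 fell. Over all genes tested, 0.433% were called higher and 0.726% were called in either direction. The median log2 fold change was 0.24 over the 9 tested members and 0.01 over all genes, with 6 of 9 members and 7672 of 15022 genes positive. At an unadjusted edgeR p under 0.05 there were 3 of the 9 members (Lrp4, Chrng and Rapsn) and 17.7% of all genes. Without the block the members' count was 0, and 0.0133% of all genes were called (2 of 15022).

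**Figure D1:**
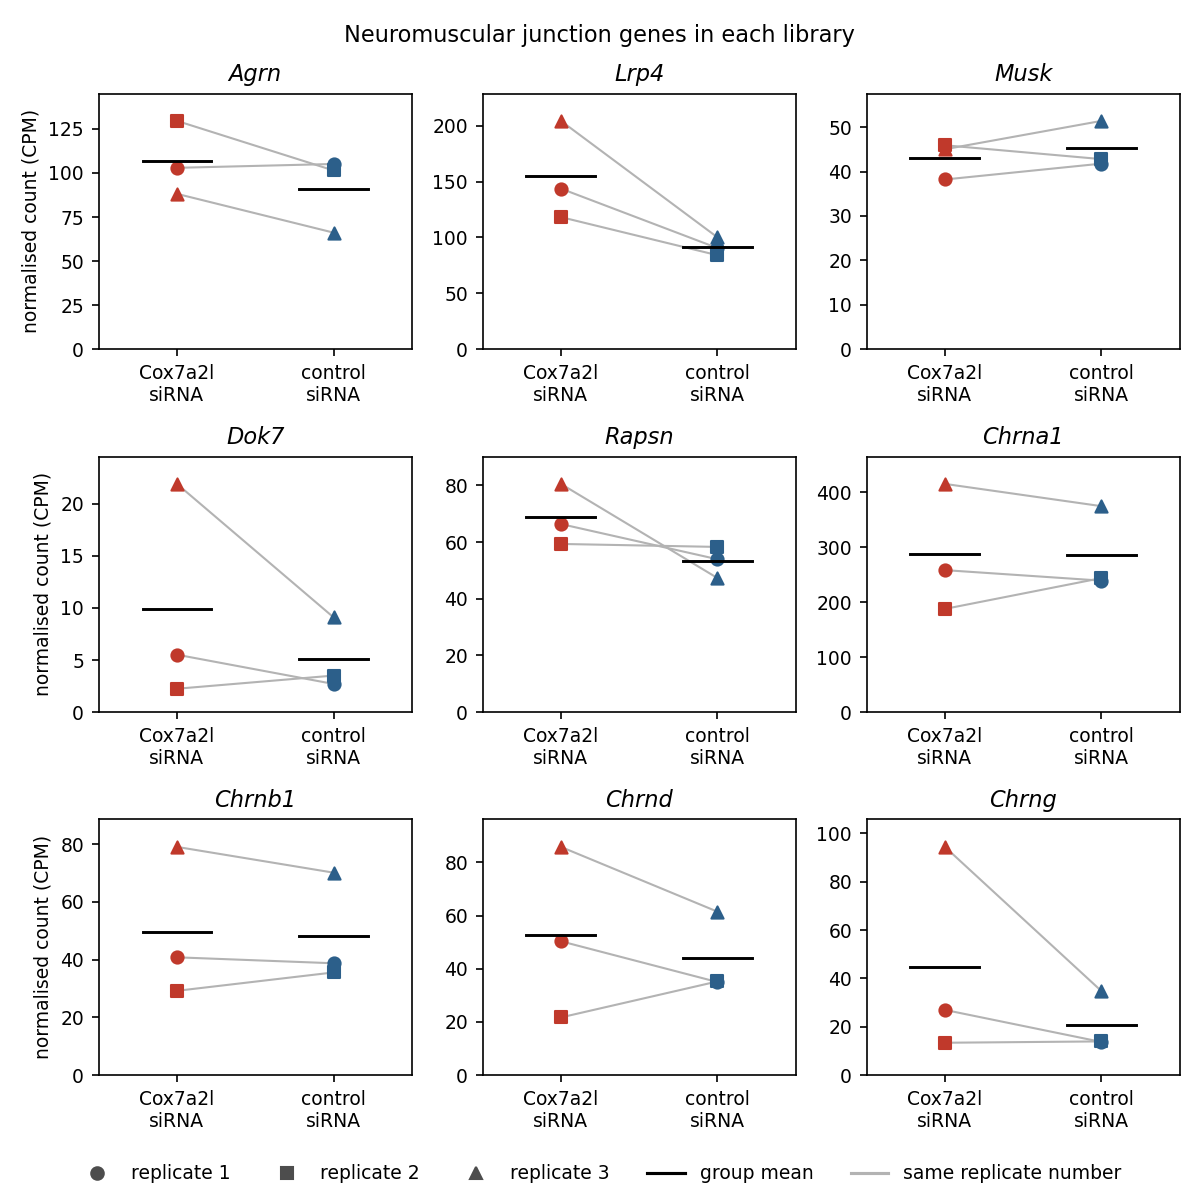
Normalised counts (CPM, linear axes from 0) of the 9 tested members in each library, with Cox7a2l siRNA left and control siRNA right in each panel. Circles, squares and triangles mark replicates 1, 2 and 3, grey lines join libraries of the same number and black bars are group means. Lrp4 and Rapsn are the panels whose groups do not overlap, and replicate 3 is the highest library of its group in all 4 receptor subunit panels.

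Lrp4 is a member of the LDL receptor family and the co-receptor through which agrin reaches MuSK. It had 144, 118 and 204 CPM in siCOX7A2L libraries 1, 2 and 3, against 90.5, 84.1 and 100.1 CPM in siCTRL libraries 1, 2 and 3. The lowest siCOX7A2L library lay above the highest siCTRL library. The means were 155 ± 44.2 CPM in siCOX7A2L and 91.6 ± 8.06 CPM in siCTRL (SD, n = 3 each). This gave a log2 fold change of 0.73, with standard error 0.13 and a 95% interval of 0.43 to 1.03 (edgeR adjusted p = 0.0400). All 3 pairs were higher, by 0.67, 0.49 and 1.03 on the log2 scale in pairs 1, 2 and 3. The pair values of Myog were 1.67, -1.41 and 1.38, so pair 2 was the lowest for both genes, and the part of differentiation markers in the Lrp4 value was not tested. A change in the number of cells expressing a gene and a change in its RNA per cell cannot be told apart in these bulk libraries. This holds for Lrp4 as for the genes below.

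The call for Lrp4 lies close to the threshold in the edgeR fit with the block and depends on how the libraries are modelled. It was lost without the block (edgeR adjusted p = 0.735, DESeq2 adjusted p = 0.289), without replicate 3 (edgeR, 0.0748), with scaling by library size alone (edgeR, 0.0556) and on TPM (limma adjusted p = 0.421 and 0.527). DESeq2 with the replicate block kept the call (adjusted p = 6.5e-04, with 1.93% of genes higher). edgeR with the block also kept it without a filter on low counts (adjusted p = 1.6e-05, with 2.12% of genes higher). So did edgeR without replicate 2 (adjusted p = 2.0e-04, with 3.52% of genes higher) and without replicate 1 (adjusted p = 0.0181, with 373 genes called in either direction). The log2 fold change of Lrp4 stayed positive in every fit run, from 0.39 on TPM to 0.91 without the block and siCOX7A2L replicate 2. In the authors' deposited table its log2 fold change was 0.73, with standard error 0.15 and adjusted p = 1.6e-04. There 2.89% of the genes with an adjusted p were higher at 0.05.

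Agrin itself, the ligand, did not pass. Agrn had 103, 129.6 and 88.2 CPM in siCOX7A2L libraries 1, 2 and 3, against 105, 101 and 66.1 CPM in siCTRL libraries 1, 2 and 3. The groups overlapped, and replicate 3 was the lowest library of each group, opposite to the receptor subunits. The log2 fold change was 0.24 with a 95% interval of -0.05 to 0.53 (edgeR adjusted p = 0.362). Nerve and muscle make agrin of different splice forms, which a count per gene does not separate.

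Musk, the kinase that Lrp4 activates, varied little. It had 38.2, 45.9 and 45.03 CPM in siCOX7A2L libraries 1, 2 and 3, against 41.8, 42.8 and 51.4 CPM in siCTRL libraries 1, 2 and 3. The groups overlapped, and the log2 fold change of -0.07 had a 95% interval of -0.37 to 0.23 (edgeR adjusted p = 0.829). On TPM, which is scaled to transcript length and so can be compared between genes, the Lrp4 level was 1.58, 1.18 and 2.21 times that of Musk in siCOX7A2L libraries 1, 2 and 3, against 1.10, 0.912 and 0.822 times in siCTRL libraries 1, 2 and 3. This ratio was chosen after its values were seen, so no p-value is given for it.

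Dok7, the adaptor that activates MuSK from inside the cell, was the lowest of the tested members and the most variable. It had 5.51, 2.25 and 21.9 CPM in siCOX7A2L libraries 1, 2 and 3, against 2.71, 3.51 and 9.10 CPM in siCTRL libraries 1, 2 and 3. Replicate 3 was highest in both groups and siCOX7A2L library 2 was the lowest of the 6. The log2 fold change was 0.66 with a 95% interval of -0.10 to 1.42 (edgeR adjusted p = 0.348), and the pairs gave 0.99, -0.61 and 1.25. With pair 2 left out it was 1.15 and passed (edgeR adjusted p = 0.00379), in a fit that called 3.52% of all genes higher.

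Rapsn encodes rapsyn, the scaffold protein under the receptor clusters. It had 66.4, 59.3 and 80.5 CPM in siCOX7A2L libraries 1, 2 and 3, against 53.9, 58.3 and 47.3 CPM in siCTRL libraries 1, 2 and 3. The groups did not overlap, though libraries 2 differed little. Rapsn and Lrp4 were the 2 of 9 tested members with all siCOX7A2L libraries above all siCTRL libraries, and 7.96% of all genes were ordered that way. The log2 fold change of Rapsn was 0.36 with a 95% interval of 0.02 to 0.71, short of the threshold (edgeR adjusted p = 0.257). The pairs gave 0.30, 0.03 and 0.77.

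**Figure D2:**
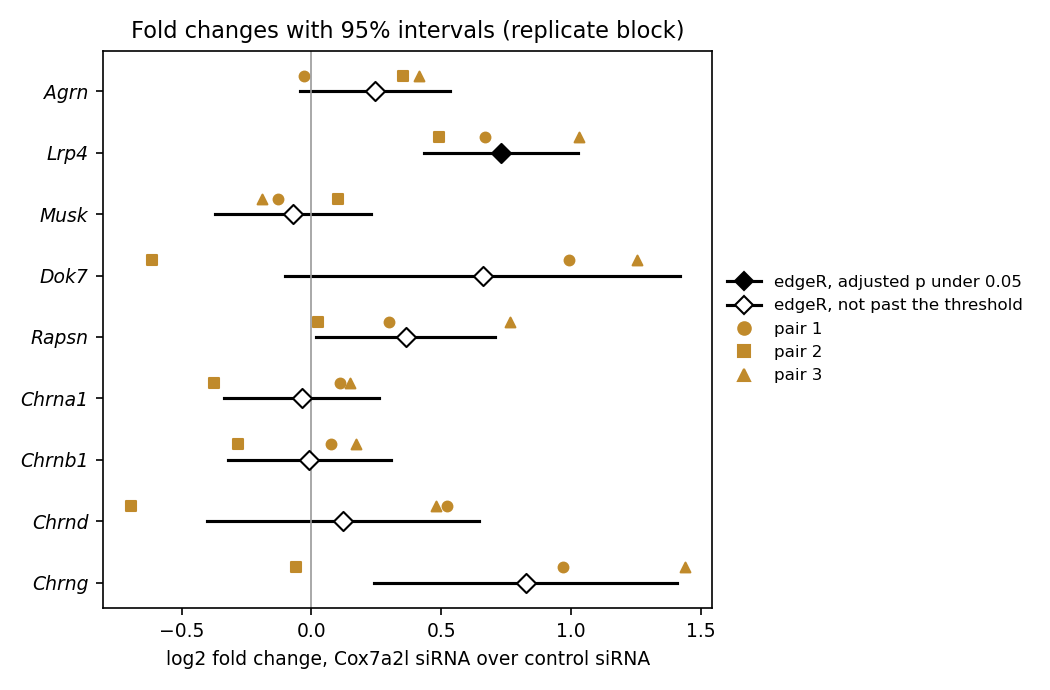
Log2 fold change of Cox7a2l siRNA over control siRNA for the 9 tested members (diamonds, filled where the edgeR adjusted p is under 0.05) with 95% intervals as lines. Small circles, squares and triangles give pairs 1, 2 and 3. Lrp4 is the filled diamond, at 0.73, and pair 2 lies below 0 for Chrna1, Chrnb1, Chrnd, Chrng and Dok7.

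The receptor subunits were expressed in every library except for Chrne. Bases 160 to 1 before the annotated start are shown for the 4 subunit genes with an entry in the RefSeq promoter table (GRCm38.p6), because E-boxes there are how myogenic factors reach these genes. E-boxes (CANNTG) are in capitals, and in Chrne also an N-box (CCGGAA), a motif of Ets factors. Chrna1 lies on the minus strand at chr2:73580339-73580498, Chrnb1 on the minus strand at chr11:69795938-69796097, Chrng on the plus strand at chr1:87205651-87205810 and Chrne on the minus strand at chr11:70619195-70619354.
Chrna1: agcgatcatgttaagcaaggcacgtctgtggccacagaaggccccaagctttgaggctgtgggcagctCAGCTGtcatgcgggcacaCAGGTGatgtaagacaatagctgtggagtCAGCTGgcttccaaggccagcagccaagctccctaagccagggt
Chrnb1: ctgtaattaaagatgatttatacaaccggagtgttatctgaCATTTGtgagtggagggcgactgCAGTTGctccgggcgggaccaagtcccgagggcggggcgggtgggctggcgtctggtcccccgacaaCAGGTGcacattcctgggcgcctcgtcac
Chrng: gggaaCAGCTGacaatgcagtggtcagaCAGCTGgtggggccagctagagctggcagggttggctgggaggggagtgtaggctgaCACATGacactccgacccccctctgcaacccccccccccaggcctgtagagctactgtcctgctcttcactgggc
Chrne: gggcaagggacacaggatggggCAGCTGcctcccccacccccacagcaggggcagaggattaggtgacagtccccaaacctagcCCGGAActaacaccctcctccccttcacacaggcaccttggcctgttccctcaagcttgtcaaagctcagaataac

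Chrna1, Chrnb1 and Chrng each held 3 E-boxes in the window of 250 bases before to 50 after the start, a number reached or passed by 17.6% of all 32851 windows in the table. Musk held 3 as well. At least 1 E-box was in 7 of the members' 9 windows, covering all 7 members in the table, and in 72.3% of all windows. The form CAGCTG, which Myod1 and its relatives bind, was in the windows of Chrna1, Chrng, Chrne and Musk, 4 of the members' 9 windows, against 16.3% of all windows. Its first base lay 92 and 44 bases before the start in Chrna1 and 155 and 132 bases before it in Chrng. The form CACCTG, or CAGGTG on the other strand, was in Chrna1 and Chrnb1 and in 20.2% of all windows. Both forms are also counted among the E-boxes. The N-box (CCGGAA, or TTCCGG on the other strand) was found in the Chrne window, 76 bases before the start, and in 14.9% of all windows. No members' window held the Mef2 motif, against 3.19% of all windows. These are matches of letters and not measured binding.

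**Figure D3:**
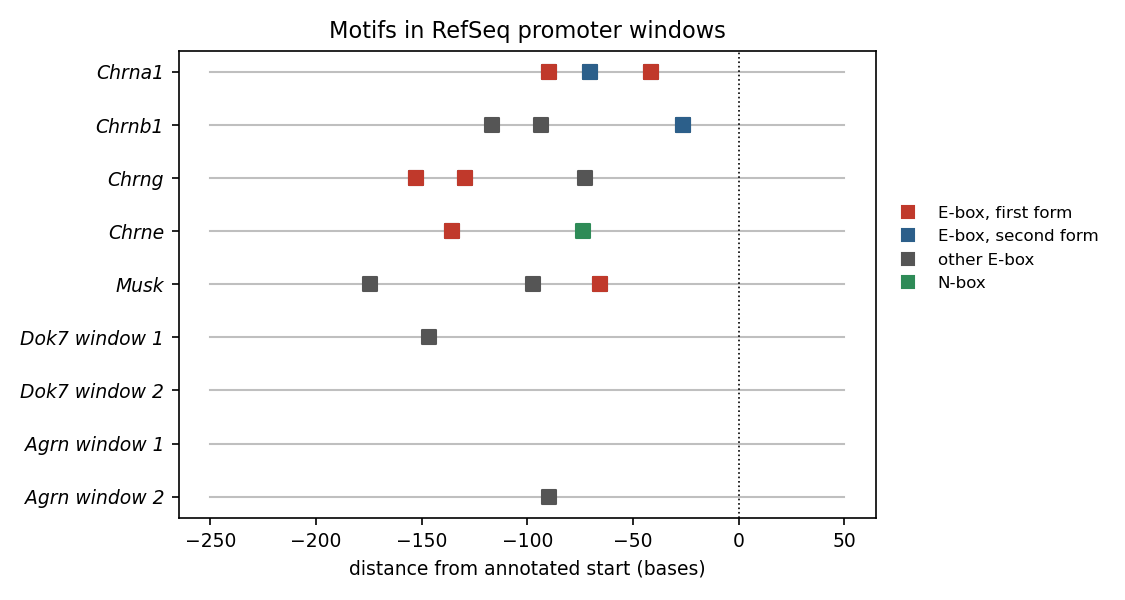
Motifs in the 9 RefSeq promoter windows of 7 members, by distance in bases from the annotated start (dotted line), on the gene's own strand. The first E-box form is CAGCTG and the second CACCTG on either strand. Chrna1, Chrnb1, Chrng and Musk hold 3 E-boxes each, and the N-box is in Chrne.

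Chrna1, the α subunit that carries the acetylcholine binding site, was the most abundant member. It had 258, 188 and 415 CPM in siCOX7A2L libraries 1, 2 and 3, against 239, 244 and 375 CPM in siCTRL libraries 1, 2 and 3. Replicate 3 was highest in both groups, siCOX7A2L library 2 was lowest, and the groups overlapped. The log2 fold change was -0.04 with a 95% interval of -0.34 to 0.26 (edgeR adjusted p = 0.915). Of the 31-base words in its transcripts, 3.98% also occur in transcripts of other genes, the largest share of any member.

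Chrnb1, the β subunit, was also highest in replicate 3 of both groups and lowest in siCOX7A2L library 2. It had 40.8, 29.2 and 79.1 CPM in siCOX7A2L libraries 1, 2 and 3, against 38.8, 35.6 and 70.1 CPM in siCTRL libraries 1, 2 and 3. Its log2 fold change of -0.01 had a 95% interval of -0.32 to 0.31 (edgeR adjusted p = 0.985). Chrnd, the δ subunit, had 50.3, 21.7 and 85.8 CPM in siCOX7A2L libraries 1, 2 and 3, against 35.0, 35.2 and 61.4 CPM in siCTRL libraries 1, 2 and 3. The siCOX7A2L libraries lay on both sides of the siCTRL libraries, with pairs at 0.52, -0.70 and 0.48, so the interval of the log2 fold change was wide (0.12, 95% interval -0.40 to 0.64, edgeR adjusted p = 0.834).

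Chrng, the γ subunit of the embryonic receptor, had the largest fold change of the subunits, and whether it passed depended on the method. It had 27.0, 13.4 and 94.4 CPM in siCOX7A2L libraries 1, 2 and 3, against 13.7, 13.97 and 34.8 CPM in siCTRL libraries 1, 2 and 3. Libraries 1 and 3 were higher after Cox7a2l siRNA than the control library of the same number, libraries 2 were nearly level, and the groups overlapped. Its log2 fold change of 0.83, with standard error 0.26 and a 95% interval of 0.24 to 1.41, did not pass (edgeR adjusted p = 0.153). DESeq2 with the replicate block gave 0.80 and adjusted p = 0.0402, where 1.93% of genes were called higher. In the authors' deposited table it was 0.84 with adjusted p = 0.0328, and 2.89% of the genes with an adjusted p there were higher at 0.05. edgeR without a filter on low counts also called it (adjusted p = 1.1e-04, with 2.12% of genes higher), as did edgeR without pair 2 (log2 fold change 1.21, adjusted p = 5.6e-07). Without pair 3 it was 0.48 (edgeR adjusted p = 0.452).

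Chrne, the ε subunit of adult junctions, was at or under the detection floor. It had 2 counts in siCOX7A2L library 1 and 0 in the other 5 libraries, where a floor of 3 counts corresponds to 0.176 to 0.303 CPM before TMM scaling, for counting error only. It was not tested and no fold change is given.

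Within each library, the share of each subunit in the summed TPM of the 5 subunit genes does not depend on scaling between libraries. Chrng made up 12.1%, 9.89% and 23.7% of receptor subunit TPM in siCOX7A2L libraries 1, 2 and 3, against 7.67%, 7.24% and 9.83% in siCTRL libraries 1, 2 and 3. The lowest siCOX7A2L share lay just above the highest siCTRL share. The means were 15.2% ± 7.45 in siCOX7A2L and 8.24% ± 1.39 in siCTRL (SD, n = 3 each), a difference of 6.99 percentage points. A two-sided exact permutation test gave p = 0.1, the smallest that 3 against 3 libraries allow, and 0.5 when adjusted over the 5 subunits. Without replicate 3 the difference was 3.53 points. In CPM, which is not scaled to length, the share was 8.83% ± 4.57 in siCOX7A2L and 4.96% ± 1.27 in siCTRL (SD, n = 3 each), and there the groups overlapped (exact permutation p = 0.2).

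The other subunits took 44.8% ± 5.89 in siCOX7A2L and 50.4% ± 3.98 in siCTRL for Chrna1, and 23.6% ± 3.27 in siCOX7A2L and 26.7% ± 3.28 in siCTRL for Chrnb1 (TPM shares, SD, n = 3 each). Chrnd took 16.4% ± 3.48 in siCOX7A2L and 14.6% ± 0.705 in siCTRL (TPM shares, SD, n = 3 each). Exact permutation tests, which do not use the replicate numbers, gave p = 0.3, 0.3 and 0.5 for Chrna1, Chrnb1 and Chrnd. Within pairs 1, 2 and 3 the Chrna1 share of TPM differed by -7.15, -2.29 and -7.36 percentage points. The Chrng share of TPM differed by 4.41, 2.65 and 13.9 points, so each had 1 sign in all 3 pairs. In CPM the Chrng share kept its sign, but the Chrna1 share did not, at -4.63, 0.28 and -7.69 points. The shares are parts of 1 sum, so a higher Chrng share lowers the others. The Chrnb1 and Chrnd shares had both signs among the pairs. A receptor pentamer holds more α than any other subunit. The Chrna1 level in TPM was 2.32, 3.92 and 2.30 times that of Chrnd in siCOX7A2L libraries 1, 2 and 3, against 3.58, 3.43 and 3.30 times in siCTRL libraries 1, 2 and 3.

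**Figure D4:**
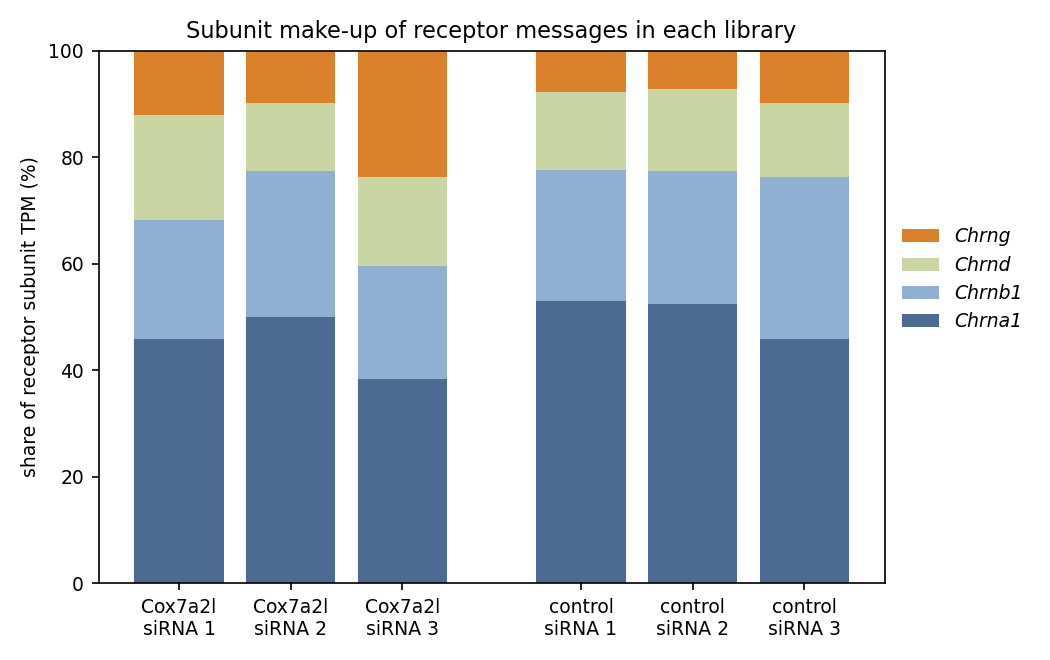
Share (%) of each subunit gene in the summed TPM of the receptor subunit genes, 1 bar per library, Cox7a2l siRNA left and control siRNA right. Chrne is too low to be seen. The Chrng segment runs from 9.89% to 23.7% after Cox7a2l siRNA and from 7.24% to 9.83% after control siRNA.

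In order of level per length, Chrna1 came first in both groups, at 45.4 ± 10.5 TPM in siCOX7A2L and 56.9 ± 17.1 TPM in siCTRL (SD, n = 3 each). Rapsn followed at 35.9 ± 4.78 TPM in siCOX7A2L and 33.4 ± 2.24 TPM in siCTRL, and Chrnb1 at 23.9 ± 5.47 TPM in siCOX7A2L and 31.8 ± 16.7 TPM in siCTRL. Chrnd, Musk, Lrp4, Agrn and Chrng had means between 10.2 and 17.7 TPM in siCOX7A2L and between 9.91 and 16.7 TPM in siCTRL. Their order differed between the groups, and neighbours in it differed by less than the larger of their SDs, except for Lrp4 and Agrn in siCOX7A2L. Dok7 was lower, at 2.65 ± 1.96 TPM in siCOX7A2L and 2.12 ± 1.50 TPM in siCTRL. Differences of TPM between libraries are not read here, because 1 gene row without a symbol took 44.2% to 53.6% of all TPM in siCOX7A2L and 36.9% to 42.5% in siCTRL.

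The subunit genes differed more between replicate 3 and the other libraries than between the siRNAs. Replicate 3 exceeded the mean of replicates 1 and 2 in siCOX7A2L by 0.91, 1.19, 1.37 and 2.30 on the log2 scale for Chrna1, Chrnb1, Chrnd and Chrng. In siCTRL it did so by 0.63, 0.92, 0.80 and 1.32 for the same genes. Dok7 differed by 2.58 in siCOX7A2L and 1.52 in siCTRL. Myog differed by 5.39 in siCOX7A2L and 4.15 in siCTRL, and Myh3, the embryonic myosin heavy chain, by 4.71 in siCOX7A2L and 4.24 in siCTRL. Lrp4, Rapsn and Musk differed by 0.65, 0.36 and 0.10 in siCOX7A2L and by 0.20, -0.24 and 0.28 in siCTRL. Agrn was lower in replicate 3, by -0.39 in siCOX7A2L and -0.64 in siCTRL. These are single libraries against a pair, with no test. Early differentiation markers moved with the same libraries, and their part in the receptor values was not tested.

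**Figure D5:**
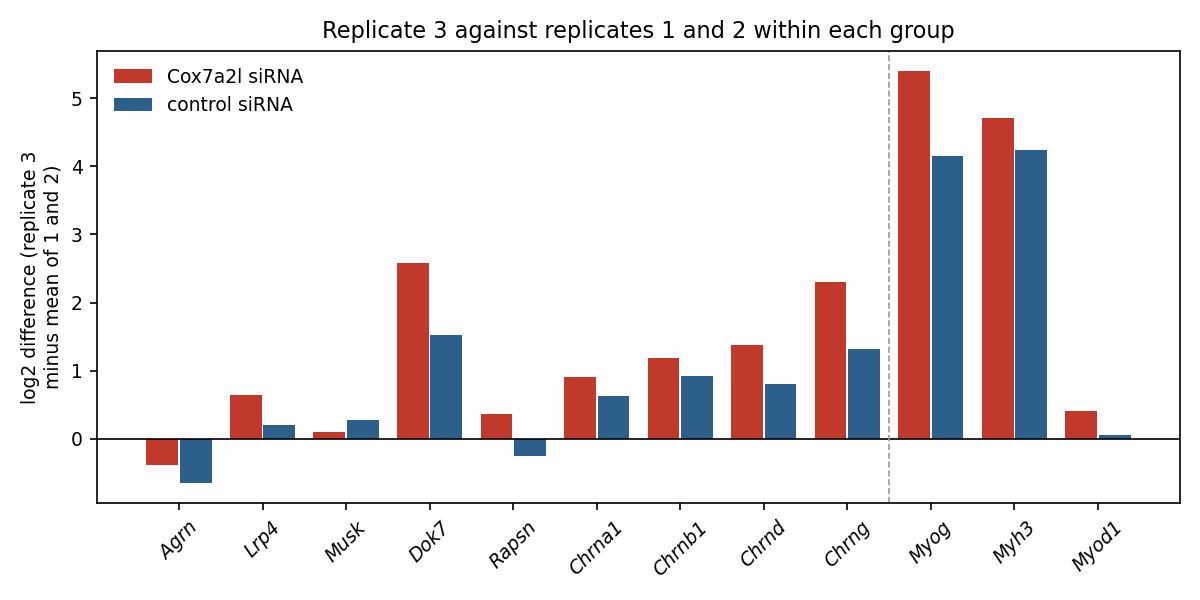
Log2 difference of replicate 3 from the mean of replicates 1 and 2 within Cox7a2l siRNA (red, left bars) and control siRNA (blue, right bars), for the 9 tested members and, right of the dashed line, Myog, Myh3 and Myod1. Chrng and Dok7 are the highest members, at 2.30 and 2.58 after Cox7a2l siRNA, and Agrn lies below 0 in both groups.

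Within pairs, Chrna1, Chrnb1, Chrnd, Chrng and Dok7 were higher after Cox7a2l siRNA in pairs 1 and 3 and lower in pair 2. Myog showed the same signs, at 1.67, -1.41 and 1.38 in pairs 1, 2 and 3, and so did Myh3, at 1.74, -0.12 and 1.28. The median over the 4 tested subunits was 0.32, -0.33 and 0.33 in pairs 1, 2 and 3, while the median of all genes was 0.00, 0.00 and 0.01. Lrp4 and Rapsn were the 2 tested members that were higher in all 3 pairs. The genes with the pattern most like a subunit were sought among 11278 named genes with a mean of at least 2 CPM, by the root mean square distance of centred log2 CPM over the 6 libraries. For Chrng they were Ryr1, the calcium release channel of skeletal muscle (distance 0.11), Ccdc88c (0.13) and the Notch ligand Dll1 (0.17). Ryr1 had 37.3, 20.9 and 125.7 CPM in siCOX7A2L libraries 1, 2 and 3, against 19.8, 17.2 and 52.2 CPM in siCTRL libraries 1, 2 and 3. For Chrnd they were Hmga2, Plekhh1 and E2f2 (0.11, 0.14 and 0.17), and for Chrna1 they were Psmd8, Daam1 and Naa50 (0.04, 0.05 and 0.05).

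No gene of the 7 wider lists around the junction passed the test with the block, among 93 tested entries. The lists were other acetylcholine receptors, effectors of MuSK, the postsynaptic scaffold and the synaptic basal lamina with acetylcholinesterase. Further lists were neuregulin with ErbB receptors, transcription factors of receptor genes and genes of receptor glycosylation and assembly. The listed genes of acetylcholinesterase and of dystrophin did not pass the filter on counts and were not tested. At an unadjusted edgeR p under 0.05 there were 23 of the 93 tested entries, against 17.7% of all genes. Chrnb2, a neuronal receptor subunit and the only 1 of 16 other receptors to be tested, had 1.52, 1.05 and 1.46 CPM in siCOX7A2L libraries 1, 2 and 3, against 0.594, 0.413 and 0.464 CPM in siCTRL libraries 1, 2 and 3 (log2 fold change 1.44, edgeR adjusted p = 0.138). The basal lamina list had 10 of 12 tested genes positive and a median of 0.25. Its nidogen gene Nid2 came nearest to the threshold, with 187, 203 and 473 CPM in siCOX7A2L libraries 1, 2 and 3, against 139, 144 and 270.2 CPM in siCTRL libraries 1, 2 and 3 (log2 fold change 0.58, edgeR adjusted p = 0.0576). Among scaffold genes (19 tested, 8 positive, median -0.06), the sarcoglycan gene Sgcd had a log2 fold change of -0.60 and the ankyrin gene Ank3 -0.38 (edgeR adjusted p = 0.225 and 0.235).

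Ligands and effectors nearby were likewise not called. Nrg1, the neuregulin gene, had 44.4, 46.2 and 57.7 CPM in siCOX7A2L libraries 1, 2 and 3, against 35.1, 36.4 and 42.5 CPM in siCTRL libraries 1, 2 and 3 (log2 fold change 0.37, edgeR adjusted p = 0.176). Etv4, an Ets factor, had 54.5, 44.8 and 46.5 CPM in siCOX7A2L libraries 1, 2 and 3, against 64.2, 68.3 and 72.2 CPM in siCTRL libraries 1, 2 and 3 (log2 fold change -0.49, edgeR adjusted p = 0.108). The groups of both genes did not overlap. Over all genes 7.96% were ordered as Nrg1 was, and the share ordered as Etv4 was is not given here. Gfpt1, an enzyme of amino sugar synthesis whose loss causes a human myasthenic syndrome, had a log2 fold change of -0.45 (edgeR adjusted p = 0.151). Of 23 tested MuSK effectors 9 were positive, with a median of -0.09, and Cdc42 and Pak1, which act on the actin cytoskeleton, had -0.39 and -0.32 (edgeR adjusted p = 0.182 and 0.216). Of 20 tested transcription factors 12 were positive, with a median of 0.14. Hdac9, a deacetylase that represses receptor genes, had 1.10 (edgeR adjusted p = 0.168), Mef2c had -0.82 (0.258) and Myog 0.90 (0.616).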

How the data were processed

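The authors deposited estimated counts per gene, not scaled to depth and not whole in 12.5% to 14.3% of values, and TPM values, scaled to transcript length. The authors' deposited result table holds, per the file headers, scaled counts (a signal divided by 1 size factor per library), log2 fold changes, a Wald statistic (a score, not used here) and p-values. Build mm39 and the tools Salmon 0.13.1, DESeq2 1.30.1 and Trim Galore 0.6.4 are listed, with no roles, in the submitters' processing notes. Libraries were made from 2 µg of RNA after ribosomal depletion and kept strand by dUTP, per the labels' protocols.

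Symbols were joined by gene identifier without version (97.6% of 52740 rows) and promoter sequences come from RefSeq on GRCm38.p6. Counts were rounded and tested over all genes with edgeR 4.0.16 (R 4.3.3): TMM factors, default filter by group, robust quasi-likelihood fits, Benjamini-Hochberg adjustment, on group plus replicate number. The design foresaw counts, hence the rounding. Standard errors are the log2 fold change over the root of F. Pair values use log2 CPM with a prior count of 2. limma 3.58.1 and DESeq2 1.42.0 gave alternatives. The code was tested on simulated data. Libraries of the same number correlated in their deviations from group means (0.53, 0.45 and 0.67). The block was set with the choice of the members, before this check, and no label says what a number shares. Replicates 1 and 2 also correlated across numbers (0.44 and 0.43), so the pairing is clear for replicate 3 alone. The members, lists and tests were chosen with earlier results of these data known. Named genes are all members, Cox7a2l, Myog, Myh3, Myod1, called genes of each wider list or its leading tested genes in each direction (some are not reported here), and the nearest patterns of Chrna1, Chrnd and Chrng.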

Additional observations from a re-analysis of the deposited data

How the results depend on the processing

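The number of genes called over the whole table was 109 in the edgeR fit with the replicate block. It was 2 with no replicate block, 197 with a term for replicate 3, 495 with DESeq2 and the replicate block, 27 with DESeq2 of group alone, 58 with library size alone, 1257 with no filter, and 3 and 2 with limma on log2 TPM with 0.1 and 1 added. Leaving out a replicate number with the block kept gave 51 to 1210, and leaving out 1 library, in fits that also had no block, gave 0 to 2. The members called were 1 in the edgeR fit with the block, 2 with DESeq2 and the replicate block and with no filter, and 0 with no replicate block, with DESeq2 of group alone, with library size alone and on TPM with either pseudocount. Leaving out a replicate number with the block kept gave 0 to 3, and leaving out 1 library with no block gave 0. The members' median log2 fold change ran from -0.11 (without siCOX7A2L replicate 3, no block) to 0.49 (without replicate 2, block kept). The median of all genes was -0.24 and -0.18 on TPM with 0.1 and 1 added, against 0.01 in the edgeR fit.

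Signs turned only for members that were not called in the edgeR fit with the block over all 6 libraries. Chrng and Dok7 are among these members, though each passed in at least 1 alternative. Chrna1 was 0.0054 and Chrnb1 0.040 with no replicate block, Chrnb1 0.0032 with the term for replicate 3 and 0.034 with DESeq2 of group alone, and Agrn -0.031 and -0.026 on TPM with 0.1 and 1 added, above the shift of all genes. Over the fits with a replicate number left out (block kept) or 1 library left out (no block), the log2 fold change ranged from -0.37 to 0.25 for Chrna1, -0.47 to 0.41 for Chrnb1, -0.29 to 0.62 for Chrnd, -0.054 to 1.69 for Chrng, -0.17 to 0.024 for Musk and -0.41 to 1.64 for Dok7. The lowest of these for Chrna1, Chrnb1, Chrnd, Chrng and Dok7 came without siCOX7A2L replicate 3 and with no replicate block. That fit keeps replicate 3 in siCTRL alone. Lrp4 and Rapsn stayed positive in all 19 alternatives, and Lrp4 passed in 7 of them. Counts of 32 to 195 limit Dok7 most among the tested members.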

Other observations

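Counts divided by TPM give the mean transcript length that the authors' quantification implied for a gene, up to a factor shared by the library. Set against the median gene, this was 0.794, 1.26 and 1.27 for Dok7 in siCOX7A2L libraries 1, 2 and 3, against 1.23, 0.808 and 0.998 in siCTRL libraries 1, 2 and 3. For Lrp4 it was 3.38, 2.97 and 3.17 in siCOX7A2L libraries 1, 2 and 3, against 2.73, 3.02 and 3.45 in siCTRL libraries 1, 2 and 3. Chrna1 stayed between 2.04 and 2.08 in siCOX7A2L and between 2.02 and 2.03 in siCTRL. The mix of transcripts assigned to Dok7 and Lrp4 thus differed between libraries of the same group. TPM and count values of these genes carry that difference in unequal measure. The implied length of Chrnd was 0.924, 0.925 and 0.988 in siCOX7A2L libraries 1, 2 and 3, and 1.06, 1.01 and 1.10 in siCTRL. That of Chrng was 0.809, 0.739 and 0.766 in siCOX7A2L and 0.801, 0.841 and 0.876 in siCTRL, in the same order. Chrnb1 ran from 0.583 to 0.721 in siCOX7A2L and from 0.569 to 0.706 in siCTRL. A shorter implied length gives more TPM per count, and its part in the TPM shares and ratios was not tested.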
